A study of Drosophila melanogaster with 36 samples.

Results

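The subject is the change in RNA between 1-2h and 2-3h after egg laying in pool 3 of sucrose gradients from orb2-delta-zz embryos of Drosophila melanogaster. Its values come from 6 libraries, the 3 pool 3 replicates of that genotype at each time, out of 36 in the series. The spread used by the tests also took in the 6 wild-type pool 3 libraries of those times. The genes are those that the authors' TPM tables list at both times. These were 8612 of the 8723 genes listed at 1-2h and the 10091 listed at 2-3h. A further 111 genes were listed at 1-2h alone and 1479 at 2-3h alone. TPM, an abundance corrected for transcript length and scaled to a fixed total per library, is relative, so a fall means a smaller share of the RNA measured.

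The orb2-delta-zz embryos lack the ZZ domain, a zinc-binding domain at the C terminus of Orb2, which belongs to the CPEB proteins that bind RNA. The wild-type embryos used for comparison were w1118, the stock from before injection. Flies were kept at 25 °C, lysates contained cycloheximide, and each gradient ran from 15% to 45% sucrose. Libraries were stranded and depleted of ribosomal RNA. The position of a pool along the gradient is not labelled, nor are the number of lines with the deletion and the origin of the replicates, so the tests measure the spread between these samples, which may be technical.

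These hours hold the maternal-to-zygotic transition. The egg is stocked with maternal mRNAs, whose translation and stability are controlled by regulators such as Smaug, Cup and the Pan gu kinase pathway. As the nuclei divide in a common cytoplasm, activators such as Zelda open the embryo's own genome, a first set of short genes is transcribed, and maternal RNAs are removed while the cells form. CPEB proteins bind the 3' ends of mRNAs and can repress or activate their translation. In whole-embryo RNA, fewer cells of a type and less RNA per cell cannot be told apart.

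The 6 libraries held an estimated 32300000 to 44900000 reads each, from the step between low values of the authors' normalized counts. The TPM of listed genes summed to between 988807 and 994328. The orb2 RNA itself was detected in all 6. It stood at 24.6, 24.5 and 27.2 TPM in replicates 1, 2 and 3 at 1-2h and at 9.13, 15.7 and 13.8 TPM at 2-3h. The groups did not overlap and orb2 fell (log2 difference -0.96 ± 0.23, SE, adjusted p = 0.0036), as it did in wild type (-1.81). A deletion of one domain cannot be checked from the level of the whole gene.

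Some libraries stood apart in genes of much older embryos. The 14 late-embryo markers listed at both times, such as the muscle myosin gene Mhc, summed to 76.8, 86.9 and 318.3 TPM at 1-2h and to 182.3, 1031.8 and 408.6 TPM at 2-3h. Replicate 3 at 1-2h and replicate 2 at 2-3h were the highest of their groups. Of the 12 tested, 1 rose (pio, median of the list 1.31), and without the 4 gradients highest in these markers (2 of each genotype) 8 rose (median 1.19). Those gradients were picked by these same markers, so the second count is no separate support for a rise. Of the egg-shell list fs(1)N alone was tested, and of the adult tissue list the lipoprotein gene apolpp, at 9.42 to 67.1 TPM.

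A second difference lay among the replicates at 2-3h. Of the 815 genes that rose over 2-fold, 93.9% were lowest at 2-3h in replicate 3 and 71.3% were highest in replicate 1. Of the 1261 that fell over 2-fold, 65.1% were lowest in replicate 1 and 45.8% highest in replicate 3. The part of this difference in the results was not tested.

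In orb2-delta-zz pool 3, 2160 of 7996 tested genes rose from 1-2h to 2-3h (27%) and 2957 fell (37%), or 64% in all, at a Benjamini-Hochberg adjusted p under 0.05 in limma. The values of the times did not overlap, upward, for 31.3% of the genes and, downward, for 40.5%. The genes that rose held 27.9% to 28.5% of all TPM at 1-2h and 38.8% to 44.3% at 2-3h. Those that fell went from 31.0% to 33.2% of all TPM down to 16.1% to 19.2%. The split depended on the scaling: after each library was centred on its median, 3879 genes rose and 1749 fell, and the median log2 difference of all genes was 0.33 in place of -0.07. Directions below are those of TPM as deposited.

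**Figure D1:**
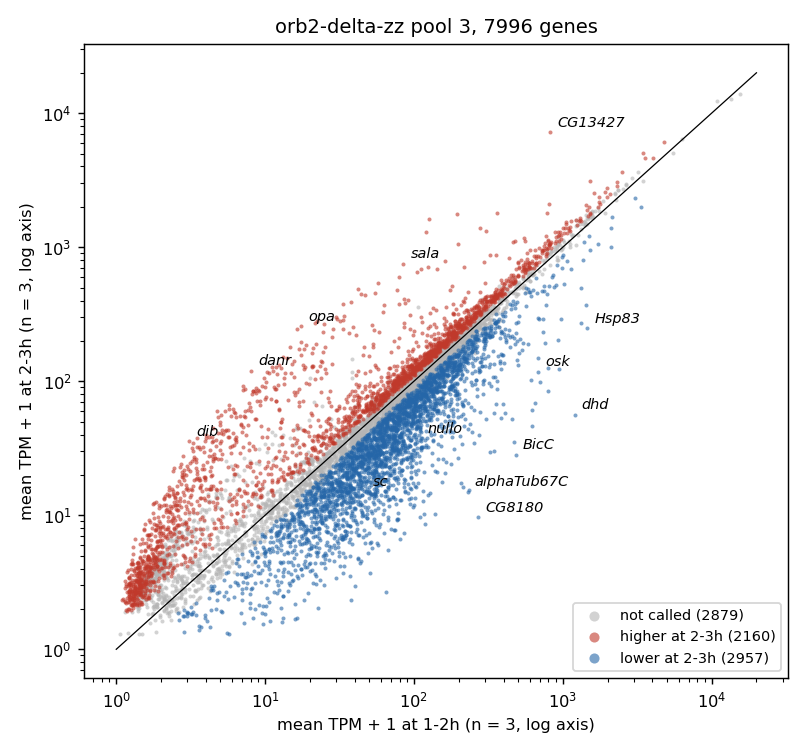
Mean TPM + 1 at 1-2h (x) and 2-3h (y), both on log axes, for each tested gene in orb2-delta-zz pool 3, with n = 3 libraries a time and the line of equal values. The 2160 genes that rose in red include opa and CG13427, and the 2957 that fell in blue include dhd, BicC and CG8180.

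Of the 10 highest at 1-2h, 9 were also among the 10 highest at 2-3h. These were histone RNAs (His3:CG33803 at 15418 ± 1624 TPM, SD, n = 3, and 13832 ± 848), the elongation factor eEF1alpha1 (5470 ± 570 and 5057 ± 334), betaTub56D, Act5C, alphaTub84B and the chromatin protein gene Df31. The histone genes are near-identical repeats and reads could be shared among copies. CG13427 entered the 10 highest at 2-3h, with 719, 1006 and 729 TPM at 1-2h and 9448, 6878 and 5348 TPM at 2-3h. Its groups did not overlap, and it rose 3.12 ± 0.23 on the log2 scale (adjusted p = 1.2e-06).

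The 15 largest rises included transcription factors and signalling genes of the patterned embryo. The gene opa, whose zinc-finger protein opens chromatin in the second phase of segmentation, stood at 16.1, 18.1 and 15.0 TPM at 1-2h and at 321, 262 and 186 TPM at 2-3h. The groups were far apart, and the log2 difference was 3.86 ± 0.19 (adjusted p = 4.9e-07). The paralogs danr (7.09 ± 0.113 to 119 ± 30.2 TPM, log2 difference 3.86) and dan (15.4 ± 1.46 to 244 ± 75.1, 3.85) encode nuclear proteins of antenna development. The bHLH gene net rose by 3.68, the Wnt antagonist nkd by 3.58, the FGF receptor adaptor stumps by 3.53 and the zinc-finger gene Blimp-1 by 3.51 on the same scale. The Hedgehog effector ci had 18.7, 21.8 and 21.3 TPM at 1-2h and 361, 274 and 175 TPM at 2-3h (3.59 ± 0.24, adjusted p = 7.7e-07). Others with rises between 3.5 and 3.63 were CG10035 (126 ± 15.7 to 1631 ± 564 TPM), CG32982, CG15628, ASPP, CG12420, the HMG-box gene HmgZ and dib, which encodes an enzyme of ecdysone synthesis.

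The first zygotic genes, a list of those known to be transcribed earliest, rose in 38 of 48 tested members and fell in 4, with a median log2 difference of 1.77 against -0.07 over all genes. Among the activators of the genome, zld, the RNA of Zelda, went from 572 ± 41.4 to 817 ± 48.4 TPM (0.51 ± 0.08, adjusted p = 0.00015). Of the same list of activators, grh rose from 14 ± 1.45 to 114 ± 32.3 TPM (2.90), and Trl, the GAGA factor, rose by 0.34. The other members of that list apart from opa did not pass the test (log2 differences -0.20 to 0.12).

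Single genes of the first set differed widely. The mesoderm determinant twi had 26.8, 36.2 and 33.9 TPM at 1-2h and 295, 255 and 182 TPM at 2-3h (log2 difference 2.86 ± 0.18, adjusted p = 6.4e-07). The pair-rule gene ftz had 32.7, 43.1 and 38.6 TPM and then 312, 245 and 198 TPM (2.67 ± 0.16, adjusted p = 5.8e-07). sala went from 83.7 ± 10.9 to 750 ± 242 TPM (3.11). In these 3 genes every library at 2-3h lay above every library at 1-2h. The mitosis inhibitor Z600 (363 ± 102 to 1792 ± 348 TPM, 2.32 ± 0.24), the lipid droplet gene halo (1.5 ± 0.31), the membrane growth gene slam (1.31 ± 0.18) and the sex-determination switch Sxl (1.44 ± 0.15) rose less. bnk, which times the closing of the cellularisation front (296 ± 75.1 and 394 ± 48.9 TPM, 0.44, adjusted p = 0.26), and zen (0.53, adjusted p = 0.12) did not pass the test.

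The 4 that fell had a lower mean at 0-1h than at 1-2h. nullo, a cellularisation gene, had 86.0, 117 and 126 TPM at 1-2h and 27.1, 47.2 and 35.5 TPM at 2-3h (-1.58 ± 0.50, adjusted p = 0.017), with a mean of 13.2 TPM at 0-1h. sc, which counts X chromosomes for sex determination, had 44.1, 43.2 and 51.6 TPM and then 16.1, 15.9 and 10.2 TPM (-1.67 ± 0.25, adjusted p = 0.00014), from a mean of 5.09 at 0-1h. The groups of both genes did not overlap. CG13712 (52.5 ± 10.1 to 11.1 ± 1.95 TPM, -2.14) and the forkhead gene fd19B (12.1 ± 3.09 to 1.49 ± 0.526, -2.39) fell as well. In wild type the same 4 genes fell, by 1.61, 1.26, 1.66 and 1.60 in that order. Of the 26 cellularisation genes, which build the membranes between nuclei, 17 rose and 6 fell (median 0.38, and 20 and 2 on median-centred values).

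**Figure D2:**
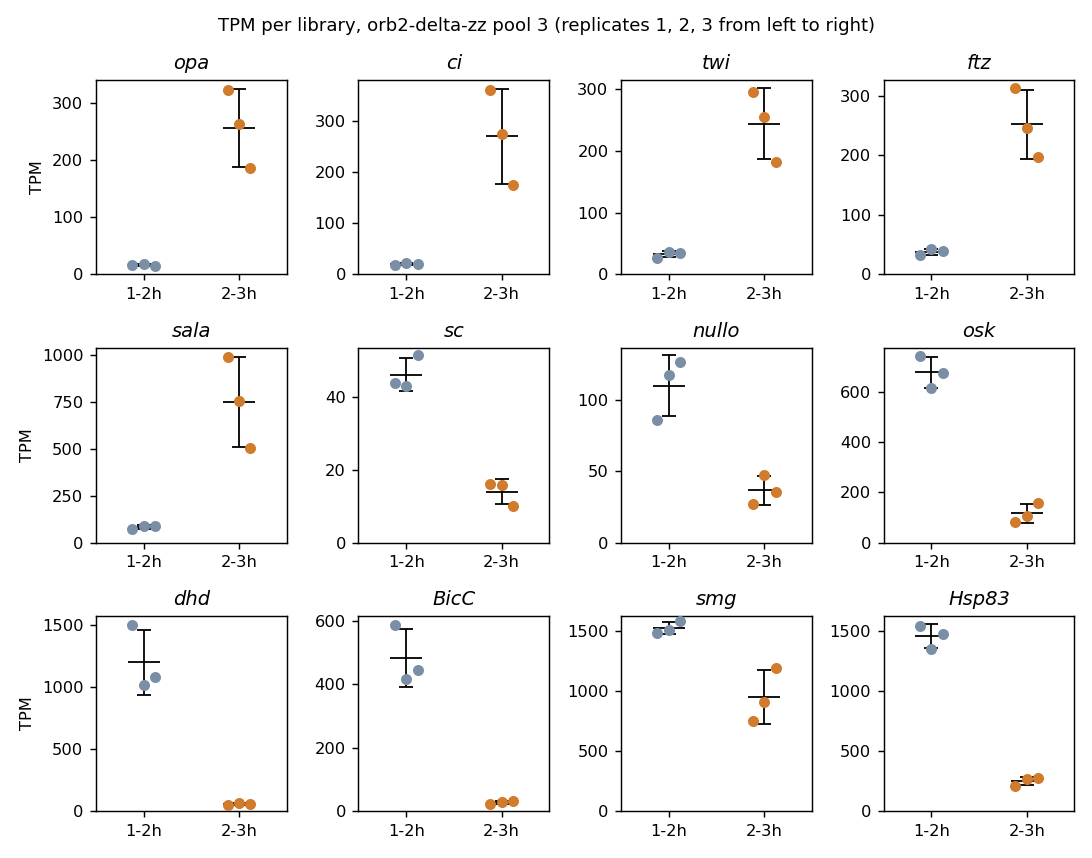
TPM (y, linear axes from 0) of 12 genes in each of the 6 orb2-delta-zz pool 3 libraries, with the mean (bar) and SD of 3. The patterning genes opa, ci, twi, ftz and sala rose, the early genes sc and nullo and the maternal RNAs osk, dhd, BicC, smg and Hsp83 fell, and replicate 3 lay lowest for the risers and highest for osk, BicC and smg at 2-3h.

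Of the gap genes, which set broad regions, 14 of 16 rose and 2 fell (median 2.33), led by knrl (2.29 ± 0.23 to 33.6 ± 8.96 TPM, 3.36) and fkh (7.70 ± 0.77 to 87.3 ± 24, 3.31). The 2 that fell have maternal RNA as well, and were hb (347 ± 21.3 to 230 ± 18.5 TPM, -0.59) and cnc (212 ± 4.94 to 64.2 ± 8.57, -1.71). Pair-rule genes, which give the double-segment pattern, rose in 12 of 13 members (median 2.53), among them prd (3.22), odd (2.75), eve (2.15) and run (1.47). The segment polarity list, which holds the Hedgehog and Wingless pathways, rose in 16 of 20 and fell in 1 (median 2.37). Its receptor gene ptc went from 16.4 ± 1.76 to 194 ± 54.0 TPM (3.45 ± 0.21, adjusted p = 5.3e-07), while the ligand genes wg (4.04 ± 0.847 to 35.0 ± 11.8) and hh (0.947 ± 0.124 to 11 ± 3.64) and the transcription factor gene en (2.42 to 24) started lower and rose by 2.80, 2.57 and 2.79. Hox genes and their cofactors rose in 9 of 11 (median 2.14), with the cofactor hth (29.0 ± 2.95 to 299 ± 86.6 TPM, 3.28) well above Antp (3.44 to 34.5) and Ubx (1.51 to 10.2) in level. The early gene zen2, of the same complex, fell (14.6 to 5.49 TPM, -1.28).

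Along the dorsal-ventral axis, 23 of 29 tested genes rose and 2 fell (median 2.39). The BMP antagonist sog (14.6 ± 2.51 to 107 ± 30.2 TPM, 2.76), the ligand dpp (8.46 ± 1.67 to 37.6 ± 9.43, 2.01) and the repressor brk (12.4 ± 1.68 to 93.6 ± 24.3, 2.79) rose, whereas scw, an early ligand for the same receptors, fell from 63.3 ± 12.8 to 32.0 ± 5.74 TPM (-0.95, adjusted p = 0.029). In the mesoderm list 17 of 25 rose and 6 fell (median 2.54). The FGF receptor gene htl (2.51 to 36.7 TPM, 3.39), its ligand ths (4.70 to 60.9, 3.38) and its adaptor stumps all rose, as did tin (3.11) and sna (2.30). The mitotic activator stg, stocked by the mother and transcribed anew later, fell from 695 ± 48 to 292 ± 14.9 TPM (-1.25).

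Genes of the nervous system and of Notch signalling rose too. Of 25 neuroectoderm genes 19 rose and 4 fell (median 2.13), including SoxN (10.8 to 126 TPM, 3.38), pros (2.98) and elav (2.90), while the repressor ttk fell (119 to 49.2 TPM, -1.28). Of the 23 Notch and E(spl) complex genes 16 rose and 1 fell (median 1.5). The 15 Bearded-family and E(spl) members among them, a group split off after the values were seen, lay between 0.90 and 3.23, with 13 that rose (Tom 3.23, Brd 2.60, BobA 2.59, E(spl)m5-HLH 2.88). Immunoglobulin-superfamily adhesion genes rose in 11 of 18 with none lower (median 1.00), and the most abundant were Lac (161 ± 0.694 to 783 ± 203 TPM, 2.24) and Ama (32.2 ± 2.60 to 375 ± 113, 3.46). Genes of dosage compensation and sex determination rose in 12 of 23 and fell in 3 (median 0.35, and 19 and 2 on median-centred values). Here msl-2, the limiting protein of the male complex, went from 10.9 ± 2.43 to 70.1 ± 17.8 TPM (2.57), its RNA partner roX1 from 61.0 ± 15.0 to 326 ± 109 (2.37), and the X-chromosome counting gene sisA rose by 1.64. The maternal splicing factor gene tra2 fell by 0.82.

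**Figure D3:**
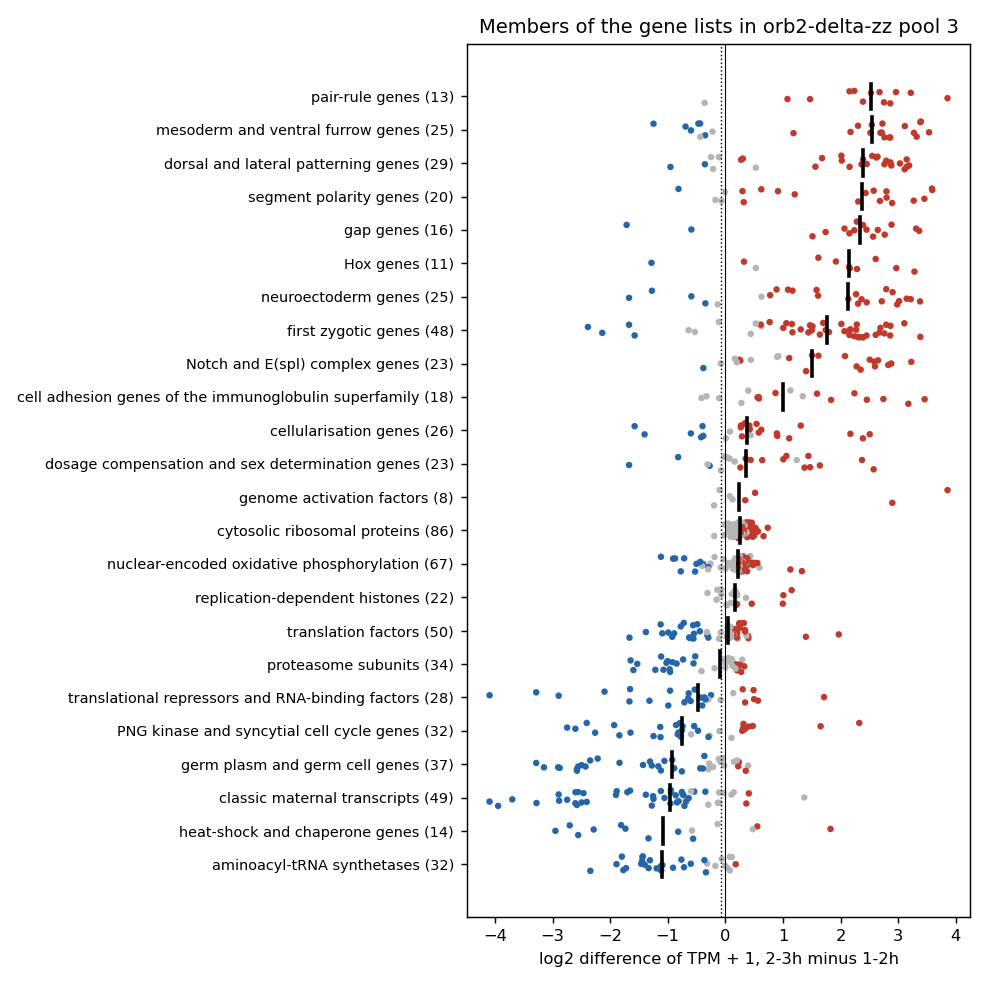
Log2 difference of TPM + 1 (2-3h minus 1-2h, x) for each tested member of 24 gene lists (y, number of members in parentheses), in red where it rose, blue where it fell and grey where it was not called, with list medians as black bars and the median of all genes (-0.07) as a dotted line. Lists of patterning genes have medians from 1.5 to 2.54, and those of maternal, cell cycle, chaperone and tRNA synthetase genes lie between -0.75 and -1.10.

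The 15 largest falls were led by 3 genes. CG8180, a gene with no role given here, had 322, 237 and 250 TPM at 1-2h and 5.96, 11.5 and 8.60 TPM at 2-3h (-4.83 ± 0.24, adjusted p = 4.9e-07). dhd, the thioredoxin that unpacks the sperm chromatin, had 1498, 1018 and 1080 TPM and then 47.5, 60.0 and 58.7 TPM (-4.40 ± 0.21, adjusted p = 4.9e-07). BicC, an RNA-binding protein that recruits deadenylases, had 586, 416 and 446 TPM and then 22.0, 27.9 and 32.2 TPM (-4.09 ± 0.24, adjusted p = 4.9e-07). In all 3 genes the values at 2-3h lay far below those at 1-2h. Their means at 0-1h, of 533, 4197 and 1253 TPM, were higher than at 1-2h, as were those of the other genes among the 15. The maternal alpha-tubulin alphaTub67C (228 ± 31.8 to 14 ± 2.86 TPM, -3.94), the bcd localisation factor exu (212 ± 38.4 to 15.3 ± 2.49, -3.70), the histone store protein Jabba of lipid droplets (619 ± 36.2 to 45.2 ± 10.5, -3.77) and the germ-line gene stet (-3.79) followed. The rest of the 15 were Cyp6a19 (-4.60), CG4476 (-4.01), the peptide transporter yin (-3.93), CG6927 (-3.80), GstD1 (-3.79), CG14545 (-3.77), CG4991 (-3.77) and Boot (-3.61), which acts in piRNA export.

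Of the classic maternal transcripts 38 of 49 fell and 2 rose (median -0.95). The posterior determinant osk had 743, 618 and 676 TPM at 1-2h and 83.7, 108 and 159 TPM at 2-3h (-2.58 ± 0.31, adjusted p = 3.5e-05). Hsp83, the Hsp90 chaperone and a model target of maternal decay, had 1543, 1352 and 1475 TPM and then 210, 262 and 274 TPM (-2.55 ± 0.13, adjusted p = 4.9e-07). The anterior determinant bcd fell less, from 256 ± 2.63 to 143 ± 32.2 TPM (-0.86 ± 0.32, adjusted p = 0.037). CycB went from 3334 ± 235 to 1991 ± 356 TPM (-0.76) and Nap1, a histone chaperone, from 485 ± 20.2 to 271 ± 26.3 (-0.84). The germ plasm list fell in 24 of 37 and rose in 3 (median -0.92). The rises numbered 9 on median-centred values, 0 without the 4 gradients highest in late-embryo markers, 1 without orb2-delta-zz 1-2h replicate 1 or 3 or 2-3h replicate 1, and 2 or 3 under the other omissions. Among the genes that fell were the splicing and translation regulator bru1 (797 ± 51.1 to 83.0 ± 22.6 TPM, -3.28), vas (-2.49), the transcriptional silencer pgc of pole cells (-2.43), piwi (-1.84), gcl (-1.43) and swa (-1.28). Replicate 3 held the highest level of osk, bru1, swa and gcl at 2-3h.

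Of the translational repressors 19 of 28 fell and 6 rose (median -0.48, with 10 lower and 8 higher on median-centred values). smg, whose protein binds and destabilises maternal RNAs, had 1484, 1505 and 1577 TPM and then 746, 905 and 1188 TPM (-0.71 ± 0.24, adjusted p = 0.021). The eIF4E-binding repressor cup went from 586 ± 25.6 to 189 ± 42.7 TPM (-1.65), orb, the paralog of orb2, from 175 ± 13.8 to 23.1 ± 5.82 (-2.89), and tral from 2108 ± 90.6 to 1396 ± 204 (-0.60). Of the CCR4-NOT deadenylase genes 4 of 11 fell and 1 rose, the falls being near the 37% of all genes. The catalytic subunits twin (-1.33) and Pop2 (-0.57) were among the falls. On median-centred values 6 of the list rose and 1 fell. Decapping and decay genes went both ways, 5 of 18 up and 8 down, where 27% and 37% of all genes did so. On median-centred values 8 were up and 2 down. Smg5, of nonsense-mediated decay, rose by 1.26. Leaving out orb2-delta-zz 1-2h replicate 3 or 2-3h replicate 1 took the rises in that list from 5 to 3, and leaving out the 4 gradients highest in late-embryo markers took them to 2.

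In the cell cycle list 20 of 32 fell and 8 rose (median -0.75). The Pan gu kinase png (46.8 ± 7.05 to 6.18 ± 1.59 TPM, -2.75) and its partner gnu (306 ± 24.5 to 51.0 ± 15.8, -2.60) fell, as did the checkpoint kinases grp (-1.84), lok (-1.65) and mei-41 (-1.13) and the mitotic cyclin CycA (-0.77). The mitotic phosphatase twe passed from 371 ± 8.83 to 251 ± 65.0 TPM without passing the test (-0.59, adjusted p = 0.052). The Stg and Twe antagonist trbl rose (84.8 ± 10.4 to 272 ± 61.7 TPM, 1.65), and so did fzy (0.41) and aurB (0.48), which serve every mitosis. Maternal and general members of the tubulin families also differed: alphaTub67C and gammaTub37C (73.6 ± 11.5 to 6.83 ± 0.706 TPM, -3.24) fell, while, with 7 of 10 actin and tubulin genes (4 without the 4 gradients highest in late-embryo markers or after quantile normalization), alphaTub84B (0.53), its near-identical paralog alphaTub84D (0.83) and gammaTub23C (0.24) rose. Among histone variants the embryonic linker gene BigH1 fell (453 ± 21.3 to 216 ± 68.1 TPM, -1.11) and the centromeric cid fell (-0.61), while His3.3A (0.75) and His3.3B (0.40) rose, among 4 of 6 variants that did (2 without those 4 gradients, and 1 after quantile normalization). The replication-dependent histones rose in 7 of 22, with none lower (median 0.17), where 27% of all genes rose. They rose in 16 on median-centred values and in 8, with 3 lower, after quantile normalization. The count was 2 of 22 without orb2-delta-zz 1-2h replicate 1 or without the 4 gradients highest in late-embryo markers. Without orb2-delta-zz 1-2h replicate 3, 2-3h replicate 2 or 2-3h replicate 3 it was 3, and without wild-type 2-3h replicate 3, which enters the shared spread, 4.

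Within the protein synthesis and degradation machinery, subunits of complexes differed in direction. The proteasome list as a whole gave 7 higher and 15 lower of 34, where 27% and 37% of all genes did so (17 and 14 on median-centred values). Its members were split by name after the values were seen. Of the 15 genes of the 20S core, the proteolytic barrel, 6 rose and none fell (Prosalpha6 783 ± 29.4 to 900 ± 28.2 TPM, 0.20, and Prosbeta4 0.27), within a range of -0.42 to 0.33. Of the 19 genes of the 19S regulatory particle, which unfolds substrates, 15 fell and 1 rose (Rpn1 169 ± 22.1 to 53.8 ± 11.3 TPM, -1.65, Rpn7 -1.60, Rpt3 -1.22), with 14 lower and 4 higher on median-centred values. In wild type the counts were 1 higher and 3 lower for the core and 2 and 15 for the regulatory particle. Without the 4 gradients highest in late-embryo markers 2 proteasome genes rose and 15 fell, and without orb2-delta-zz 1-2h replicate 3 the rises numbered 4.

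Of the 32 aminoacyl-tRNA synthetases 23 fell and 1 rose (median -1.10, and 19 and 7 on median-centred values). They included the cytosolic MetRS (51.4 ± 5.38 to 9.40 ± 1.79 TPM, -2.34) and LeuRS (-1.80), and the one that rose was the mitochondrial MetRS-m (0.18). Split by name, which was not planned in advance, 14 of 17 cytosolic and 9 of 15 mitochondrial enzymes fell. Translation factors rose in 16 of 50 (9 without the 4 gradients) and fell in 18, shares near those of all genes, and on median-centred values 31 rose and 10 fell. The groups by name among these factors were not planned in advance either. Of 14 genes of eIF3, the scaffold of initiation, 10 rose and 1 fell (eIF3h 351 ± 7.98 to 462 ± 14.2 TPM, 0.40). Of 8 genes of eIF2, which brings the first tRNA, and of its exchange factor eIF2B, none rose and 6 fell (eIF2Bdelta 63.7 ± 8.67 to 23.7 ± 1.93 TPM, -1.38). On median-centred values 3 of these 8 fell and 1 rose. The cap-binding factor eIF4E1 fell from 730 ± 67.2 to 231 ± 35.0 TPM (-1.67) and the helicase eIF4A rose by 0.34.

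Cytosolic ribosomal protein genes moved up by small amounts, with 42 of 86 called and none lower (median 0.26), such as RpL30 (574 ± 15.4 to 909 ± 65.3 TPM, 0.66) and RpL32 (0.56). On median-centred values 85 rose. The count was 24 without orb2-delta-zz 1-2h replicate 1, 27 without 2-3h replicate 1 or replicate 2, 25 without the 4 gradients highest in late-embryo markers, and 15 with 3 lower after quantile normalization. Mitochondrial ribosome genes rose in 23 of 71 and fell in 10 (mRpL43 0.80, mRpS29 -0.96), where 27% and 37% of all genes did so. On median-centred values 52 rose and 4 fell, and without those 4 gradients 11 and 8. Rises numbered 15 without orb2-delta-zz 1-2h replicate 3, and falls 6 without its replicate 2. Oxidative phosphorylation genes rose in 28 of 67 and fell in 10 (UQCR-Q 0.39, ATPsynbeta -0.50), with 53 and 5 on median-centred values, and the rises numbered 16 without orb2-delta-zz 1-2h replicate 3 and 14 without the 4 gradients. The transcription machinery rose in 22 of 52 (14 without the 4 gradients) and fell in 8, with 41 and 4 on median-centred values. RNA polymerase II subunits, a group by name not planned in advance, rose in 8 of 13 with none lower. Tbp, the TATA-binding protein, fell from 139 ± 10.4 to 67.8 ± 5.82 TPM (-1.03), and the Mediator gene MED17 rose by 1.10. Polycomb and trithorax genes went both ways, 14 of 29 up (7 without the 4 gradients) and 9 down (19 and 5 on median-centred values), as ph-p (15.9 to 87.0 TPM, 2.35) and phol (160 to 49.1 TPM, -1.69) show.

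Heat-shock and chaperone genes fell in 9 of 14 and rose in 2 (median -1.08). The small heat-shock genes stocked in the egg, Hsp26 (940 ± 143 to 123 ± 32.4 TPM, -2.95) and Hsp27 (793 ± 11.5 to 125 ± 37.3, -2.70), and the mitochondrial Hsp60A (-2.29) fell, while Hsp23 rose by 0.55. DNA replication genes rose in 2 of 16 (Mcm7 0.45) and fell in 7 (RnrL, of nucleotide synthesis, -1.65), but 5 rose and 1 fell on median-centred values. Small nuclear and nucleolar RNAs rose in 27 of 68 with none lower (median 0.56), in 46 on median-centred values and in 15 without orb2-delta-zz 2-3h replicate 3. Long noncoding RNAs rose in 104 of 222 and fell in 26 (median 0.54), against 50 and 44 after quantile normalization (median 0.06). Of 13 genes named as orb2 or its targets in earlier work, 5 rose (tutl 5.05 to 39.9 TPM, 2.74) and 6 fell, against 7 and 5 on median-centred values.

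**Figure D4:**
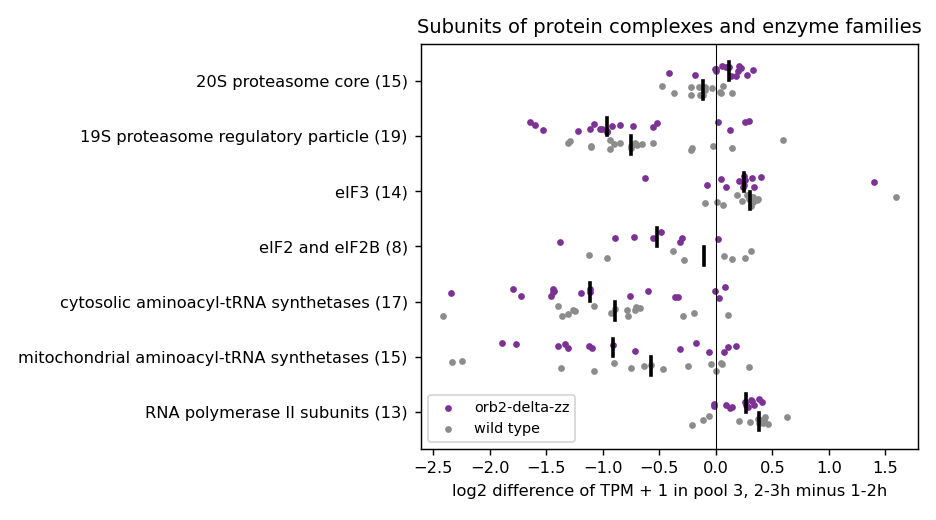
Log2 difference of TPM + 1 in pool 3 (2-3h minus 1-2h, x) for each tested gene of 7 complexes or enzyme families (y, number of genes in parentheses), in orb2-delta-zz (purple) and wild type (grey), with medians as black bars. Genes of the 20S core lie between -0.42 and 0.33 in orb2-delta-zz, and the medians are -0.96 for the 19S particle, 0.25 for eIF3 and -0.52 for eIF2 and eIF2B. The groups by name were not planned in advance.

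The same change was measured in wild type with separate libraries. There 2207 genes rose (27.6%) and 3568 fell (44.6%). Of the 2160 that rose in orb2-delta-zz, 1758 rose and 17 fell in wild type, and of the 2957 that fell, 2535 fell and 15 rose. The difference between the changes passed the test for 996 genes as higher in orb2-delta-zz (12.5%) and for 260 as lower (3.25%), or 15.7% in all. On median-centred values these were 502 and 424, and after quantile normalization 454 and 308. Of the genes that differed, 613 fell in orb2-delta-zz with a log2 change less negative there than in wild type. The total of 1256 moved widely when 1 library was left out. It ran from 15 genes without orb2-delta-zz 1-2h replicate 1 to 2506 without wild-type 2-3h replicate 2. Under each of the 12 omissions 11 higher and 4 lower genes were called. At an unadjusted p under 0.05 in limma, 2892 genes differed with all libraries, and 2334 to 3378 over the omissions.

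Within that limit, 21 of 49 classic maternal transcripts had a higher change in orb2-delta-zz than in wild type and 1 a lower one, with median changes of -0.95 and -1.80. In the germ plasm list these were 13 and 0 of 37, with medians of -0.92 and -1.20. osk fell by 2.58 in orb2-delta-zz and by 4.49 in wild type (difference 1.91 ± 0.44, adjusted p = 0.029), and smg by 0.71 and 2.04 (1.33 ± 0.33, adjusted p = 0.033). Hsp83 fell by 2.55 and 2.58, a difference of 0.03 ± 0.19 (adjusted p = 0.93). In limma 0 of 48 first zygotic genes passed this test, against 1 at an unadjusted p under 0.05, with median changes of 1.77 and 1.65. Without the 4 gradients highest in late-embryo markers the maternal list gave 19 higher and 0 lower, and the germ plasm list 14 and 0. The maternal count of 21 did not hold under each omission of 1 library. Over all genes only 11, 15 and 17 were higher without orb2-delta-zz 1-2h replicate 1, 2 or 3. Without its 2-3h replicate 2 it was 16.

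**Figure D5:**
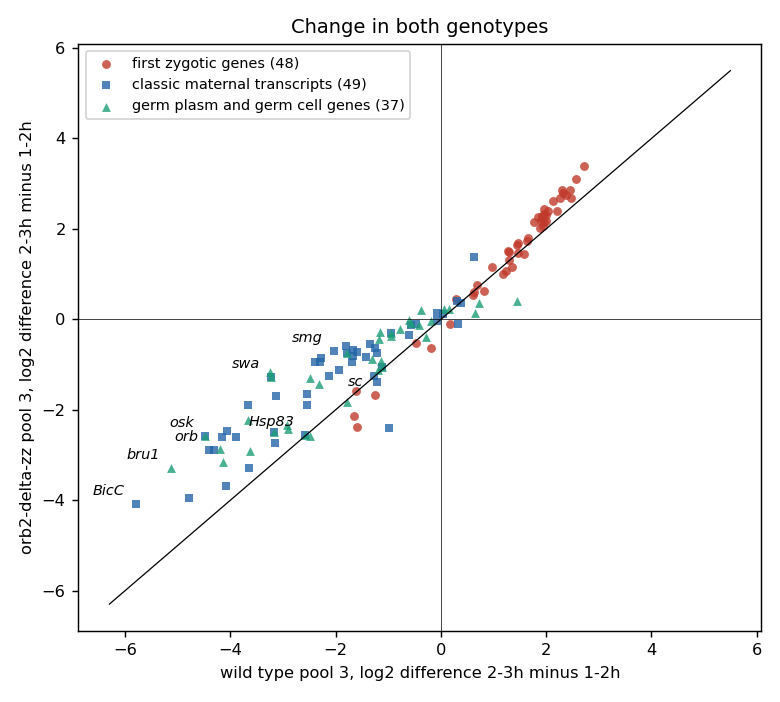
Log2 difference of TPM + 1 between 2-3h and 1-2h in pool 3 of wild type (x) and orb2-delta-zz (y), for first zygotic genes (red circles), classic maternal transcripts (blue squares) and germ plasm genes (green triangles), with the line of equal change. Maternal genes such as osk, bru1 and smg lie above the line, and Hsp83 lies on it.

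Ten-a, a cell-surface teneurin of synapses and axons, rose from 3.09 ± 0.507 to 24 ± 7.41 TPM in orb2-delta-zz (2.57) and by 0.11 in wild type, where it did not pass the test (difference 2.46 ± 0.30, adjusted p = 0.0059). krimp, a piRNA pathway gene, had 159, 146 and 160 TPM and then 55.4, 67.4 and 86.6 TPM, a fall of 1.16 against 3.24 in wild type (2.08 ± 0.27, adjusted p = 0.0096). In the opposite direction, phr6-4, a photolyase gene, had 60.0, 58.7 and 61.4 TPM and then 16, 16.2 and 18.5 TPM (-1.77 ± 0.16), while in wild type it rose by 0.72 (difference -2.49 ± 0.22, adjusted p = 0.0019). CG17470 fell by 1.5 against a rise of 1.08, and Ku80, of DNA end joining, fell by 0.90 against a rise of 0.80.

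Pool 1 of the same gradients allowed the change in pool 3 to be set against it. The ratio of pool 3 to pool 1 rose for 3470 of 7707 genes (45%) and fell for 664 (8.62%), or 53.6% in all, in orb2-delta-zz, with a median change of 0.52. On median-centred values 1924 rose and 2252 fell (median -0.06), so the change of a list is read here against that of all genes. Slbp, which binds the end of histone mRNA, went from 361 ± 61.4 to 69.4 ± 5.47 TPM in pool 1 while it went from 181 ± 13.5 to 375 ± 104 TPM in pool 3 (change of the log2 ratio 3.37 ± 0.24, adjusted p = 6.5e-07). The ratio passed from below 1 to above 1. The replication-dependent histone genes had a median change of 1.66 (19 of 22 higher), the mitochondrial ribosome genes of 1.41 (61 of 71) and the DNA replication genes of 1.52 (13 of 16). On median-centred values these medians were 1.09, 0.83 and 0.95, with 14, 51 and 11 higher. The mesoderm list stood at 1.23 (20 of 25, and 0.65 with 14 centred).

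The other genes with the largest rises of the ratio were CG15387 (3.44), the splicing gene U2A (3.33), the mitochondrial protein gene P32 (3.29), CG32243 (3.26), CG17343 (3.21), His1:CG33861 (3.18) and mRpL46 (3.15). For U2A the level in pool 1 went from 30.5 ± 11.3 to 4.31 ± 0.47 TPM, while that in pool 3 went from 20.5 ± 4.77 to 37.7 ± 12.1. The largest falls of the ratio included genes of the oocyte surface and egg shell, namely the yolk receptor yl (-2.63), fs(1)N (-2.46), fs(1)M3 (-2.31) and clos (-2.23), with spg (-2.18), CG42238 (-2.10) and CG6966 (-1.96) beside them. yl had 14.4 ± 7.86 and then 13.5 ± 4.69 TPM in pool 1, against 612 ± 26 and then 100 ± 33.2 TPM in pool 3. Among maternal regulators the ratio of smg changed by -1.94, of CycA by -1.67 and of twin by -1.42, all past the test, and that of osk by -0.13 (adjusted p = 0.61). Classic maternal transcripts as a list had a median of -0.07, with 6 higher and 10 lower of 49. On median-centred values the median was -0.65 (4 higher and 27 lower), and after quantile normalization -0.98 (6 and 36).

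The annotation of the genes that moved differed. Genes that rose over 4-fold (356) had a median gene length of 7475 nt and a median longest transcript of 2788.5 nt, against 2802.5 and 2066.5 nt for all tested genes, and 10.2% lay on the X chromosome against 17.3%. Those that fell over 4-fold (319) had 3502 and 2242 nt, 24.8% on the X and 7.52% without an intron, against 11.9% of all tested genes. Of all 2160 genes that rose 16.1% had no intron, and of the 2957 that fell 8.07%.

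Genes listed at 2-3h alone were mostly low, with a median of 0.499 TPM in orb2-delta-zz pool 3, and 48 of the 1479 had a mean of at least 10 TPM. The highest was His2B:CG17949, at 531, 1140 and 2850 TPM in replicates 1, 2 and 3. Next came CG13159 (107, 697 and 232 TPM), nur (35.9, 261 and 66.5) and Osi7 (16.1, 155 and 47.0), in which replicate 2 was highest, as it was in the late-embryo markers. No fold is given for these, since the table of 1-2h does not list them.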

How the data were processed

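RNA was measured by sequencing of sucrose gradient pools, and 12 pool 3 libraries (orb2-delta-zz and wild type, 1-2h and 2-3h, 3 each) entered the main fit. The authors deposited TPM values and normalized counts per gene (a signal made with DESeq2 factors, scaled separately for each time). Per the submitters' processing notes, the tools were DESeq2 1.42.1, Salmon 1.9.1 and Trim Galore 0.6.5. The build was not given in the sources used here. Each deposited table holds only genes with a value above 0 in every one of 12 libraries, so TPM was compared over genes listed at both times. The deposited normalized counts served for totals (2.19e+07 to 3.28e+07 in the 6 libraries) and for the estimate of reads. No whole counts were recovered. In the 6 libraries, 80.0% to 91.1% of 60 to 145 low values lay within 0.1 of a whole step of the estimated value of 1 read, so counting intervals were not computed.

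Gene symbols and annotation came from Ensembl release 115 (BDGP6). Of the 8612 genes, 63 had no symbol and were tested but not named. limma 3.58.1 (R 4.3.3, with trend) was fitted to log2(TPM + 1) of the 7996 genes with a mean TPM of at least 1 in the 12 libraries, with a mean for each group. Folds of low genes are understated on this scale. The pool ratio, log2(TPM + 1) of pool 3 minus pool 1 in each of 12 gradients, was fitted in the same way. Tests were two-sided, and a gene was called where its Benjamini-Hochberg p, adjusted over all tested genes, was under 0.05. At an unadjusted p under 0.05 there were 5420 genes for the change, 2892 for the genotype difference and 4514 for the ratio. The fit was checked on simulated data with noise drawn independently for each gene and library. That check does not cover differences between libraries that many genes share. Tables were made in Python 3.11.15 (numpy 2.4.6, pandas 2.3.3) and figures in matplotlib 3.10.9.

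Named were the 15 called genes with the largest rise and fall (a mean of at least 10 TPM at the higher time, groups not overlapping), the 8 largest each way for the genotype difference and the pool ratio, the 10 most abundant at each time, orb2, and members of 39 gene lists, except genes that are not reported here. The mitochondrially encoded RNAs were not listed. The members and lists were chosen with earlier results of these data known. The replicate numbers did not pair the orb2-delta-zz samples, since deviations of same-numbered libraries at the 2 times correlated at 0.20, -0.47 and -0.24. In wild type these were 0.39, 0.63 and 0.54, though replicate 1 at 1-2h correlated more, at 0.59, with replicate 3 at 2-3h. In orb2-delta-zz replicate 3 at 1-2h correlated at 0.66 with replicate 2 at 2-3h. Those 2 libraries were the highest of their groups in late-embryo markers. In wild type replicate 2 was highest at both times in the marker Mhc (37.8 and 64.4 TPM). Promoter motifs were not searched and no sequence is printed, for want of sequence tables.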

Additional observations from a re-analysis of the deposited data

Results flagged for a closer look

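The change from 1-2h to 2-3h in pool 3 differed between genotypes, by the test of the difference itself, for 1256 genes. That count moved widely when 1 library was left out, and only 11 higher and 4 lower genes were called under each of the 12 omissions. With all libraries, for those named in the report or by its rule, the difference (orb2-delta-zz minus wild type, log2) was as follows. Higher in orb2-delta-zz were CG9265 (2.96), Ten-a (2.46), CanB2 (2.29), rost (2.26), Tsp66E (2.08), krimp (2.08), CG5966 (2.03) and Duox (1.98). Among maternal and germ-line genes it was 1.95 for swa, 1.91 for osk, 1.84 for bru1, 1.72 for BigH1, 1.71 for BicC, 1.62 for yl, 1.60 for fs(1)N, 1.52 for orb, 1.33 for smg, 1.28 for gnu, 1.21 for twe, 1.03 for CycB, 0.58 for Nap1 and 0.59 for tral. Further higher ones were CG4991 (1.23), Jabba (1.17), CG8180 (1.17), dhd (1.00), CG6966 (0.75), RnrL (0.68), CG32243 (0.68) and Trl (0.31). Lower in orb2-delta-zz were LeuRS (-0.72), P32 (-1.22), Trs23 (-1.59), Pex11ab (-1.63), Ku80 (-1.70), CG4676 (-1.84), CG5096 (-1.92), CG13367 (-2.37), phr6-4 (-2.49) and CG17470 (-2.58).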

How the results depend on the processing

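The alternatives were other pseudocounts (0.1 and 5), no filter or a mean of at least 5 TPM, 3 other scalings, the 6 orb2-delta-zz libraries alone, robust moderation, library weights, a minimum change of 2-fold, a replicate block and each library left out. Leaving out the 4 gradients highest in late-embryo markers was added after the data were seen. The count of genes that rose (2160) became 3879 on median-centred values, 401 with the 2-fold minimum and 1851 to 2223 with 1 library left out, and that of genes that fell (2957) became 1749, 619 and 2639 to 3131. In all 12 omissions 1645 of the rises and 2459 of the falls were called. The added alternative gave 1929 and 2557, of which 1676 and 2525 were called with all libraries. The replicate block, whose numbers did not pair the orb2-delta-zz samples, gave 2211 and 3014, and for the genotype difference 1088 higher and 422 lower against 996 and 260.

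The genotype difference (1256 genes) became 762 after quantile normalization, 4791 with library weights, 0 with the 2-fold minimum in limma (52 at an unadjusted p under 0.05) and 645 with the added alternative. With 1 library left out it ran from 15 to 2506. Omitting wild-type replicates 1, 2 and 3 gave 38, 746 and 34 at 1-2h and 126, 2506 and 33 at 2-3h, and omitting orb2-delta-zz replicates 15, 25 and 26 and then 2042, 26 and 193. The cause was not tested. The pool ratio count (4134) became 678 with the 2-fold minimum and ran from 3487 to 4174 with 1 gradient left out.

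Of the called genes, 389 falls changed sign on median-centred values, and 38 rises and 145 falls after quantile normalization. Of the called genes named in the text, Act5C (0.21) became -0.19 and Df31 (0.38) -0.012 after quantile normalization, which gives the same value to genes of the same rank and put His3:CG33803 and betaTub56D at 0. Of those not called, His3:CG33803 (-0.15) became 0.24 and eEF1alpha1 (-0.11) became 0.29 on median-centred values, and CG9265 (-0.17) became 0.23 on median-centred values, 0.43 with library weights and 0.043 without orb2-delta-zz 2-3h replicate 1, within -0.49 to 0.043 over all omissions. Trs23 (-0.33) became 0.064 and 0.047 on median-centred and quantile values. On those, with library weights, without 1-2h replicate 1 and without 2-3h replicate 3 of orb2-delta-zz, CG15387 (-0.05) became 0.34, 0.42, 0.085, 0.035 and 0.23 and P32 (-0.10) became 0.30, 0.34, 0.087, 0.054 and 0.11. Over all omissions they ran from -0.26 to 0.23 and from -0.20 to 0.11. His1:CG33861 (0.36) became -0.017 with the added alternative. The tables hold no whole counts, so low genes such as hh and Ubx carry an error that was not computed.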
